A study of Homo sapiens with 24 samples.

Results

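Oxaliplatin was given to E1A-expressing HCT116 oxpl-R cells, and the response of their RNA was measured in 6 of the 24 samples of the series. HCT116 is a human colorectal carcinoma cell line, and HCT116 oxpl-R is its oxaliplatin-resistant derivative. Both groups carried the TetOn-E1A genotype, a transgene for the adenovirus E1A protein that doxycycline switches on, and both received doxycycline at 0.5 µg/mL. Members were chosen by these labels alone. In 3 samples, 25 µM oxaliplatin was added 3 h after doxycycline and left for 24 h, and the other 3 samples received no oxaliplatin. How long doxycycline was given to the samples without oxaliplatin is not stated here. Replicates were labelled as biological replicates of 1 line, so the spread given here is that between cultures of this line. The other conditions of the series were HCT116 oxpl-R cells without doxycycline and the parental HCT116 line, each with and without oxaliplatin, and they are used only where the response is compared with them. Doxycycline was always given together with E1A, so the effects of the drug and of the transgene cannot be told apart.

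Oxaliplatin is a platinum drug that forms adducts with DNA. Damaged DNA activates p53, a transcription factor that raises CDKN1A, whose product p21 inhibits cyclin-dependent kinases, so that RB-family proteins stay active and E2F target genes and genes of the G2 and M phases are repressed. E1A binds RB-family proteins and releases E2F factors from them, and it also binds acetyltransferases of the host such as EP300 and CREBBP. For this reason p53 targets, E2F targets and G2/M genes are described first.

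The E1A transgene was read in all 6 samples. It had 21976, 15312 and 26098 estimated counts in replicates 1, 2 and 3 without oxaliplatin, and 18326, 16964 and 26996 counts with it. The groups overlapped, and E1A did not pass the test (log2FC −0.23, adjusted p = 0.681 by edgeR's quasi-likelihood test with Benjamini-Hochberg adjustment). The HCT116 oxpl-R samples without doxycycline held between 161 and 342 counts of the same transgene. Totals of the count table lay between 26421619 and 37927720 per sample, and mitochondrially encoded mRNA took 10.3% to 13.4% of them. Pearson coefficients of log CPM were 0.985 to 0.988 within the E1A group, 0.990 to 0.993 within the group with oxaliplatin and 0.984 to 0.989 between the groups. Of 11 intestinal epithelial markers tested, only 6 had at least 10 normalised counts on average. The epithelial markers KRT8, KRT19, EPCAM, CDH1 and CDX2 were read in every sample at 1378 normalised counts or more, while CDX1 and KRT20, the latter chosen after its values were seen, were near 0. No immune or endothelial marker was called by edgeR (1 endothelial marker was lower at an unadjusted p below 0.05, and DESeq2 called none), and of 9 fibroblast markers COL1A1 was read at 380 to 1178 normalised counts and ACTA2 rose, with values given further on.

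Of 20366 genes tested, 223 rose after oxaliplatin, which is 1.09% of them, and 191 fell, which is 0.938%. The test was edgeR's quasi-likelihood test with an adjusted p below 0.05. At an unadjusted p below 0.05 in the same test, 1086 of the 20366 genes were higher and 1441 lower. Counts of list members at that threshold in this response are to be read beside these. The median log2FC of all genes with at least 10 normalised counts was −0.03. Cultures with the same replicate number deviated together, and with the number as a block 931 genes rose (4.57%) and 1013 fell (4.97%). All 223 and all 191 genes were among these. Of the 17296 genes of the count table, 357 were called. Without E1A replicate 3 this number was 1120, and without replicate 2 of the group with oxaliplatin it was 199. Of the 3070 genes after SETP6, which come from a second table, 57 were called, 198 without the first of these samples and 29 without the second. Levels given below are counts normalised by TMM over all 24 samples, in the order of replicates 1, 2 and 3, and fold changes are on the log2 scale with their standard error (SE).

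Targets of p53 rose together. Of 44 list members tested, 31 rose and none fell, with a median log2FC of 1.19 over the 42 members with at least 10 normalised counts. In 37 members, all 3 samples with oxaliplatin lay above all 3 without it, against 9.1% of all genes. With the replicate block, 37 were called. The members with a role in arrest, feedback on p53, death, repair and secretion are taken in turn.

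CDKN1A lies on chromosome 6 (chr6:36676460-36687337, plus strand). Its normalised counts were 18084, 14570 and 14942 without oxaliplatin and 86524, 85264 and 97909 with it. DINOL, which overlaps CDKN1A on the opposite strand, had means of 1.0 and 14.9. The groups of CDKN1A were far apart, and the change was 5.53-fold (log2FC 2.47, SE 0.20, adjusted p = 2.08e-05 by edgeR's quasi-likelihood test). BTG2, an antiproliferative gene, rose from 1772, 1649 and 1516 to 6550, 6116 and 6467 normalised counts (log2FC 1.92, adjusted p = 5.49e-05). PLK3 rose by a log2FC of 1.45, GADD45A, a stress sensor that binds PCNA, by 1.11, and SFN, which encodes 14-3-3 sigma and holds cells in G2, by 1.64. PLK3, SFN and CCNG1 were chosen after their values were seen. CCNG1 was at 1871, 4945 and 3768 normalised counts without oxaliplatin and at 7448, 7362 and 5007 with it (adjusted p = 0.189; 1.62e-06 with the replicate block), and E2F7 overlapped between the groups (log2FC 0.08).

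Genes of the feedback on p53 rose as well. MDM2, the ubiquitin ligase that removes p53, was at 4329, 4666 and 3842 normalised counts without oxaliplatin and at 18520, 16778 and 10047 with it. The replicate 3 value was the lowest of the treated samples, but it was above every untreated one (log2FC 1.79, SE 0.23, adjusted p = 0.00075). PPM1D, a phosphatase of p53, rose by 1.01 and PHLDA3, which restrains AKT and was chosen after its values were seen, by 1.49. PPM1D lost its call without replicate 1 or 2 of the group with oxaliplatin (adjusted p = 0.0565 and 0.0874).

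Of the 11 death genes on the list, 10 rose. TP53I3, an oxidoreductase gene induced by p53, had the largest change of the list, from 664, 705 and 824 to 7013, 7882 and 9585 normalised length-scaled counts (log2FC 3.46, SE 0.20, adjusted p = 6.67e-06). BAX, a pore-forming BCL2-family effector, went from 3534, 3208 and 3177 to 7596, 7566 and 9347 normalised counts (log2FC 1.27, adjusted p = 0.00127). FAS, a death receptor, went from 216, 291 and 496 to 1031, 1244 and 1503 (log2FC 1.86, adjusted p = 0.00376). In each of these 3 genes the treated samples were all above the untreated ones. BBC3, which encodes the BH3-only protein PUMA, rose by 1.41, TP53INP1 by 2.00, and the TRAIL receptor genes TNFRSF10A and TNFRSF10B by 0.90 and 0.83. Without replicate 2 of the group with oxaliplatin TNFRSF10A and TNFRSF10B had adjusted p = 0.105 and 0.101, and without replicate 1 TNFRSF10B had 0.0689. PMAIP1, which encodes NOXA, was higher in all 3 treated samples but did not pass the test (log2FC 0.54, adjusted p = 0.184; 0.0122 with the replicate block).

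None of the 4 survival genes of the BCL2 family was called by edgeR's quasi-likelihood test, none had an unadjusted p below 0.05, and DESeq2 called none. BCL2L1 overlapped between the groups at 11287, 9801 and 7707 normalised counts without oxaliplatin and 12063, 12063 and 10704 with it. MCL1 had a log2FC of −0.19 and BCL2 of −0.39. Of the 12 caspases and regulators of caspases, 1 was called: BIRC5, the survivin gene, which is also a G2/M gene. It fell from 13250, 14526 and 10923 to 4429, 4319 and 6983 normalised counts (log2FC −1.33, adjusted p = 0.00307). With the replicate block 1 of the 12 fell and 2 rose, among them BIRC3 (log2FC 1.21, adjusted p = 0.00113).

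Of the 13 p53 targets in repair and metabolism, 8 rose. FDXR, which reduces ferredoxin in mitochondria, went from 2913, 2182 and 2608 to 9146, 8502 and 12040 normalised counts (log2FC 1.91, adjusted p = 0.00018). DDB2, the damage sensor of nucleotide excision repair, rose by 1.17, SESN1 by 1.56 and GPX1, a glutathione peroxidase, by 0.87. GPX1 was not called without replicate 2 or 3 of the group with oxaliplatin (adjusted p = 0.0887 and 0.132) or with filterByExpr, a filter on low counts (0.0536), and SESN1 was not called with that filter (0.0549). RRM2B, the p53-induced subunit of ribonucleotide reductase, was at 674, 661 and 2418 and then at 2007, 2559 and 3718 normalised counts. It was higher in each same-numbered pair, yet the groups overlapped because replicate 3 was high in both (log2FC 1.07, adjusted p = 0.282; 3.5e-11 with the replicate block). GDF15, a secreted stress cytokine, rose from 10709, 5740 and 7667 to 33539, 32122 and 35340 (log2FC 2.03, adjusted p = 0.000294).

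**Figure D1:**
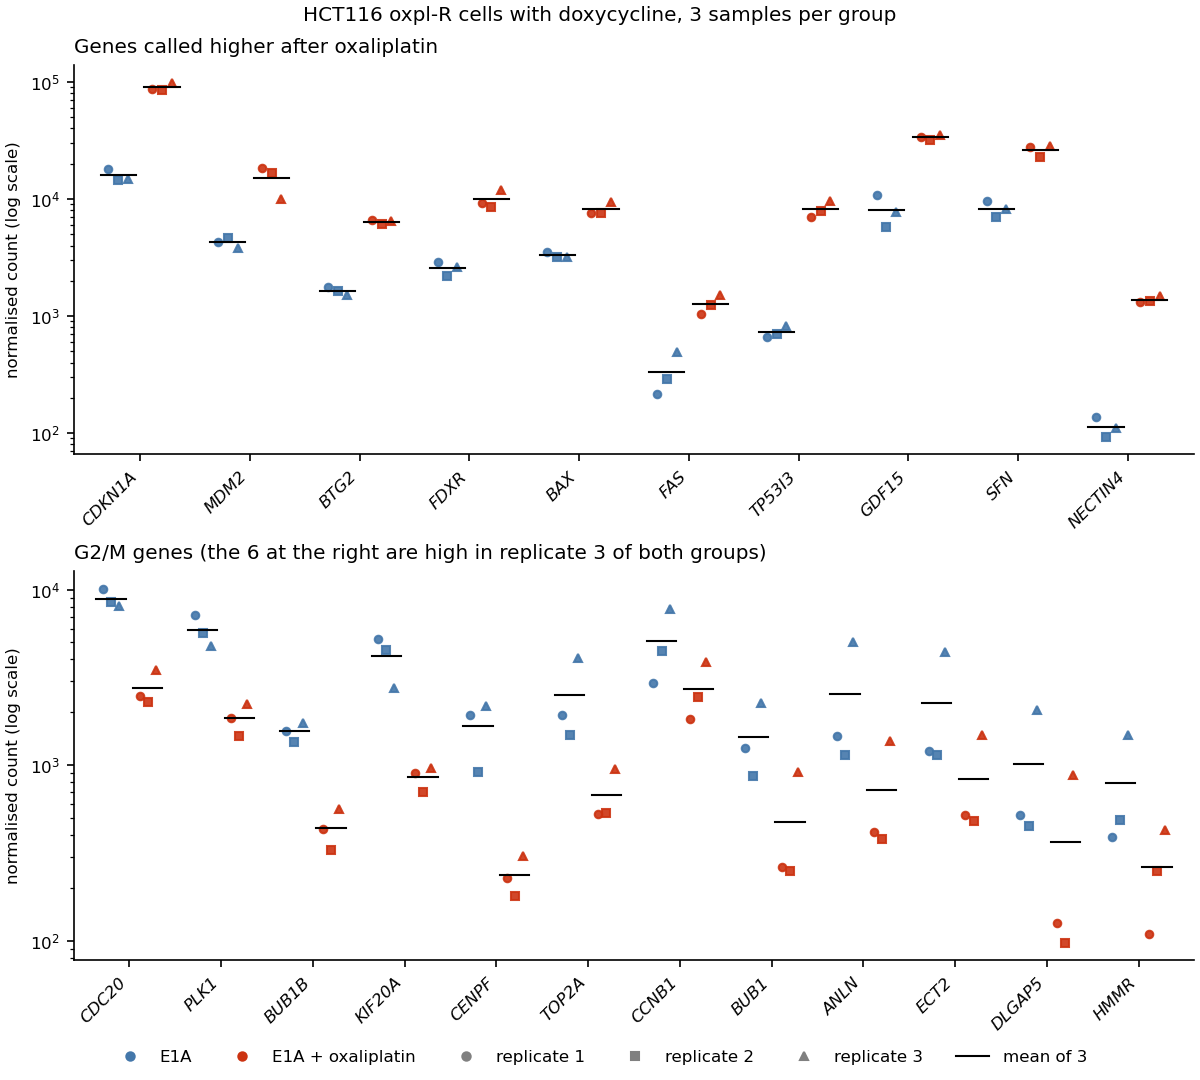
Normalised counts on a log axis in each of the 6 samples (blue, E1A; red, E1A + oxaliplatin; marker shape, replicate number; black bars, means of 3), for genes called higher (top) and for G2/M genes (bottom). For the genes at the top the 2 groups do not overlap, whereas CCNB1, BUB1, ANLN, ECT2, DLGAP5 and HMMR are high in replicate 3 of both groups.

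Sequence near the p53 targets was searched for a full p53 motif. Whether p53 drove the changes was not tested. The motif was a pair of decamers with no spacer, with both CWWG cores intact and at most 2 differences elsewhere, within 3000 bases on either side of the gene's start. It was found near 13 of 44 list members (29.5%) and near 2.92% of 20015 genes tested. Among the 31 members that rose it was near 22.6%, a smaller share than in the whole list. Among the 191 other genes that rose it was near 8.9%. Matches are given for 4 genes that rose, read on the plus strand of GRCh38, with the core letters in capitals. They lie at chr6:36676449-36676468 across the annotated start of CDKN1A, at chr1:203303642-203303661 for BTG2, at chr1:67686775-67686794 for GADD45A and at chr10:88991309-88991328 for ACTA2. The match listed for ACTA2 was assigned by its distance from the annotated start of that gene. ACTA2 overlaps FAS, a gene of the p53 list that rose, on the opposite strand. That match therefore cannot be credited to ACTA2 rather than to FAS. A match describes letters and does not show binding.
CDKN1A: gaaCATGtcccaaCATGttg
BTG2: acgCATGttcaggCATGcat
GADD45A: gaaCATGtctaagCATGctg
ACTA2: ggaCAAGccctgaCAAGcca

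ACTA2, the smooth muscle actin gene that serves as a fibroblast marker, rose from 217, 131 and 279 to 743, 631 and 1088 normalised counts (log2FC 1.92, adjusted p = 0.00363). ACTA2 overlaps FAS on the opposite strand, and the counting is not stated to use strand, so reads of these genes may not be separable. No other fibroblast marker was called.

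The largest increases lay partly outside the p53 list. SORCS2, a sortilin-family receptor gene, went from 20.5, 13.2 and 23.1 to 430, 570 and 584 normalised length-scaled counts (27.2-fold, log2FC 4.76, adjusted p = 1.21e-05).

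NECTIN4, a cell adhesion gene, went from 136, 93.0 and 110 to 1307, 1342 and 1493 normalised counts (11.9-fold, log2FC 3.57, adjusted p = 3.3e-06). SUGCT rose by 2.90 and the glutamate receptor gene GRIN2C by 2.93. FRMPD2 rose by 3.62, HMCN2 by 3.12, BTBD19 by 2.84 and ACTBL2 by 3.41. None of these groups overlapped, but genes named by fold were taken only from called genes without overlap. The separation is therefore part of how they were chosen. CBS, which makes cystathionine, went from 7.63, 6.73 and 9.31 to 112, 105 and 168 normalised counts (log2FC 3.96, adjusted p = 9.75e-05). CBS has a near-identical copy, CBSL, so how its reads were shared is uncertain.

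G2/M genes fell together. Of 58 members tested, 39 fell and none rose, and the median log2FC was −1.34. All 58 members had a log2FC below 0. In 44 members the treated samples were all below the untreated ones, against 7.95% of all genes, and 56 members were lower in every same-numbered pair, against 17.4% of all genes. With the replicate block 55 were called. In bulk RNA, fewer cells in G2 and M phase and less of these mRNAs per cell cannot be told apart. By flow cytometry, the paper reports that this resistant line accumulates in G2/M under oxaliplatin, after a longer exposure than here. No doxycycline is described for that measurement, and the cell cycle phase of the cultures sequenced here was not tested.

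Among cyclins and kinases, 10 of 15 fell. PLK1, a mitotic kinase, went from 7135, 5694 and 4758 to 1868, 1470 and 2220 normalised counts (log2FC −1.69, SE 0.20, adjusted p = 0.000546). CCNB2, a cyclin partner of CDK1, went from 2439, 2883 and 2182 to 772, 832 and 1086 (log2FC −1.52, adjusted p = 0.000896). BUB1B, a spindle checkpoint kinase gene, went from 1573, 1361 and 1742 to 435, 330 and 560 (log2FC −1.86, adjusted p = 0.000698). No treated value reached an untreated one in these 3 genes. AURKA fell by 1.52 and AURKB by 1.07 on the log2 scale. AURKB was not called without replicate 2 of the group with oxaliplatin (adjusted p = 0.0875). CDK1 itself overlapped, at 4052, 9555 and 4463 and then 4993, 4038 and 4422 normalised counts (log2FC −0.46, adjusted p = 0.541), and it was not called with the replicate block either (adjusted p = 0.202).

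Among spindle and kinetochore genes, 15 of 26 fell, and 24 with the replicate block. KIF20A, a kinesin of cytokinesis, went from 5197, 4552 and 2743 to 908, 703 and 967 normalised counts (log2FC −2.30, SE 0.23, adjusted p = 0.000152). CENPF, a kinetochore gene, had the largest drop of the list, from 1924, 920 and 2183 to 228, 181 and 305 (log2FC −2.86, SE 0.32, adjusted p = 0.000307). Both were about as low in each of the 3 treated samples. ASPM fell by 2.13, PRC1 by 1.64 and KNL1 by 1.99 on the log2 scale. With the filterByExpr filter KNL1 and ASPM were not called (adjusted p = 0.103 and 0.0534), and neither was KNL1 without replicate 2 of the group with oxaliplatin (0.0704).

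Among genes of anaphase and its regulators, 14 of 17 fell. CDC20, an activator of the anaphase-promoting complex, lies at chr1:43358981-43363203. It went from 10099, 8469 and 8034 to 2482, 2293 and 3465 normalised counts (log2FC −1.73, SE 0.20, adjusted p = 0.000341). FOXM1, a transcription factor of G2/M genes, fell by 1.13 on the log2 scale (adjusted p = 0.00318), TOP2A by 1.92 and GTSE1, which limits p53, by 1.35. TOP2A was not called with the filterByExpr filter (adjusted p = 0.0652). MYBL2 was at 8084, 5631 and 6471 and then at 3926, 3320 and 5283 normalised counts (log2FC −0.72, adjusted p = 0.0986; 0.000168 with the replicate block).

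Several G2/M genes were high in replicate 3 of both groups. ANLN, an actin-binding gene of the cleavage furrow, was at 1472, 1149 and 5053 normalised counts without oxaliplatin and at 417, 382 and 1381 with it (log2FC −1.89, adjusted p = 0.107; 1.21e-18 with the replicate block). DLGAP5 was at 521, 448 and 2065 and then at 126, 97.6 and 877, and ECT2 at 1201, 1144 and 4408 and then at 518, 481 and 1488 (adjusted p = 0.39 and 0.179; 6.81e-15 and 1.86e-11 with the block). In all 3 genes replicate 3 with oxaliplatin was above or near the untreated replicates 1 and 2, although each pair fell. CCNB1 was at 2934, 4481 and 7800 and then at 1832, 2430 and 3855 (adjusted p = 0.193; 2.94e-06 with the replicate block). HSP90AA1, a chaperone gene outside the cell cycle, had the same layout at 7519, 7392 and 36080 and then at 2918, 4014 and 16326 (adjusted p = 0.467; 4.34e-11 with the block). ANLN, DLGAP5, ECT2 and BUB1, which is drawn in the plot of levels by sample, were chosen after their values were seen. What set replicate 3 apart was not tested.

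Promoters of G2/M genes often hold a CHR, the cell cycle element through which the DREAM and MuvB complexes act, and promoters of replication genes hold E2F sites. In the 250 bases before the start, in RefSeq promoters of GRCh38.p14, the CHR letters TTTGAA (or TTCAAA for the other strand) were found in 23 of 49 G2/M promoters (46.9%), in 4.17% of 48 promoters of the E2F list and in 13.6% of all 27305 promoters. Of 30 G2/M promoters whose genes were called, 56.7% held them. The E2F letters TTTCCCGC or TTTGGCGC, on either strand, were found in 31.2% of the 48 promoters of the E2F list, in 4.08% of the G2/M promoters and in 1.96% of all. The promoters of CDC20 (chr1:43358731-43358980, plus strand) and PLK1 (chr16:23678639-23678888, plus strand) are shown as examples from the list that fell most, and those of E2F1 (chr20:33686386-33686635, minus strand) and CDT1 (chr16:88803539-88803788, plus strand) as examples from the list whose response is compared with and without E1A in what follows. Capitals mark the CHR letters in the first pair and the E2F letters in the second pair.
CDC20: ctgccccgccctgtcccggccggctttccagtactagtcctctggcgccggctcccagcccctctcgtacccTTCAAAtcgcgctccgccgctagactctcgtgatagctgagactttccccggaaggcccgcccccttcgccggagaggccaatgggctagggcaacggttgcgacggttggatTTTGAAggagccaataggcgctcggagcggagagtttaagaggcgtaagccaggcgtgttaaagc
PLK1: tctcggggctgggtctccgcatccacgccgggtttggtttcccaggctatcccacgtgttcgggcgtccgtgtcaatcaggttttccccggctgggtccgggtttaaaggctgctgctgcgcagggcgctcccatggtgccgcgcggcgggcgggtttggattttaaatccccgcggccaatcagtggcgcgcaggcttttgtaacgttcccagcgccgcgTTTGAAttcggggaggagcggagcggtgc
E2F1: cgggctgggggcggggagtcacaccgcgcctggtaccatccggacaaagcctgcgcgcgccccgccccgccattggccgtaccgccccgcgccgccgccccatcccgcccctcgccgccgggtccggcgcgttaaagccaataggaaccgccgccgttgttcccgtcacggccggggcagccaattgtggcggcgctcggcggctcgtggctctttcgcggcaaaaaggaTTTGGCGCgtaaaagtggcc
CDT1: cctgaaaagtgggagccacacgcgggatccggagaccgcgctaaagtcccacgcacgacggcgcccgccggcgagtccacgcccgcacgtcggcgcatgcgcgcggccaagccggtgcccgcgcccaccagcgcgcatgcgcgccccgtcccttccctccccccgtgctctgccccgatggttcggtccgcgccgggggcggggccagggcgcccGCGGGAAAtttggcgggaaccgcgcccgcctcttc

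E2F targets and replication genes changed less than G2/M genes. Of 59 tested, 9 fell and none rose, with a median log2FC of −0.49. With the replicate block 30 fell and 1, CCNE2, rose. The count of 9 was 3 without replicate 1 and 2 without replicate 2 of the group with oxaliplatin, and 14 without E1A replicate 3. In 37 members every same-numbered pair was lower, against 17.4% of all genes.

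Origin licensing genes held 5 of the 9, and with the replicate block 14 of these 18 genes fell. ORC1, a subunit of the origin recognition complex, went from 1451, 1289 and 1086 to 629, 512 and 472 normalised counts (log2FC −1.28, SE 0.21, adjusted p = 0.00376). MCM10, which activates the replicative helicase, went from 1369, 947 and 1204 to 564, 336 and 458 (log2FC −1.41, adjusted p = 0.00513). MCM4 and MCM7, subunits of that helicase, fell by 0.82 and 0.79 on the log2 scale. The catalytic polymerase subunit gene POLA1 fell by 1.43, and FEN1, which trims flaps of Okazaki fragments, fell by 0.81. MCM4 and FEN1 lost their calls when any 1 of the 3 samples with oxaliplatin was left out (adjusted p = 0.0693, 0.0995 and 0.0789 for MCM4 and 0.0851, 0.142 and 0.0537 for FEN1), and POLA1 without replicate 2 (0.0526). PCNA, the polymerase clamp, overlapped at 16681, 23865 and 13614 and then 21991, 22101 and 18451 normalised counts (log2FC 0.18, adjusted p = 0.712).

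None of the 8 E2F factor genes and none of the 9 G1/S cyclin and kinase genes was called by edgeR's quasi-likelihood test. At an unadjusted p below 0.05, 3 of the former and 1 of the latter were lower, and DESeq2 called 1 and 0. With the replicate block 3 of the E2F factor genes fell, and of the cyclin and kinase genes 1 rose and 1 fell. E2F1, whose promoter is shown above, was at 4918, 3512 and 3824 normalised counts without oxaliplatin and at 3099, 2363 and 3360 with it. Each pair was lower and the groups just failed to overlap (log2FC −0.51, SE 0.19, adjusted p = 0.255; 0.0214 with the replicate block). CCNE1 had a log2FC of 0.04 and CCND1 of 0.35. CCNE2, a G1/S cyclin gene, was at 341, 856 and 1335 and then at 1477, 1413 and 1501 (log2FC 0.73, adjusted p = 0.424; 8.48e-05 with the replicate block). The untreated samples of CCNE2 spread over a wide range, with all treated ones above them.

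Other stress pathways moved in part. In the integrated stress response list, 10 of 29 members fell and 3 rose. ATF4, the factor that drives this response, went from 41786, 44588 and 31606 to 17592, 19223 and 20879 normalised counts (log2FC −1.06, adjusted p = 0.0069). Of its targets, CHAC1 fell by 1.49 on the log2 scale. Among those in amino acid supply, ASNS, asparagine synthetase, fell by 1.29 and PHGDH, the first enzyme of serine synthesis, by 1.10. The cystine transporter gene SLC7A11 fell by 1.69. ATF3, an early stress factor that p53 also induces, rose from 1079, 1234 and 863 to 2438, 2282 and 1922 (log2FC 1.03, adjusted p = 0.00948). The other 2 that rose were CBS, described above, and SESN2, which is on the p53 list too. SESN2 was not called when any 1 of the 3 samples with oxaliplatin was left out (adjusted p = 0.131, 0.111 and 0.064) or without E1A replicate 2 (0.0666), ATF3 not without replicate 2 with oxaliplatin (0.0536), and SLC7A11 not without replicate 3 with oxaliplatin (0.0671) or with the filterByExpr filter (0.0652). DDIT3, the CHOP gene, was at 99.98, 294 and 238 and then at 372, 534 and 560 (log2FC 1.17, adjusted p = 0.121; 2.17e-07 with the replicate block). The 10 became 6 without replicate 2 and 6 without replicate 3 of the group with oxaliplatin, and 5 with limma on the second table.

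In the list of DNA damage signalling and repair, 7 of 62 fell and 1, DDB2, rose. Genes of recombination and of the Fanconi pathway, which handle interstrand crosslinks, were among those that fell. FANCD2 went from 1573, 1153 and 1423 to 619, 529 and 595 normalised counts (log2FC −1.29, adjusted p = 0.00307), and BRCA1 from 471, 443 and 616 to 188, 140 and 210 (log2FC −1.55, adjusted p = 0.00478). The claspin gene CLSPN fell by 1.03, the exonuclease gene EXO1 by 1.13 and TOPBP1 by 1.68 on the log2 scale. Without replicate 2 of the group with oxaliplatin none of these 3 was called (adjusted p = 0.111, 0.147 and 0.0765). CLSPN was not called without replicate 3 either (0.0602) or with all 24 samples in one fit (0.0693), nor TOPBP1 without replicate 1 (0.0665) or with filterByExpr (0.0935). With the replicate block 19 fell and 5 rose. Of the 15 nucleotide excision repair genes, only DDB2 was called, 4 rose with the replicate block, and ERCC1 had a log2FC of 0.54 (adjusted p = 0.189; 0.0141 with the replicate block).

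The remaining lists held few calls. No member of 19 transport and metallothionein genes for platinum was called in either direction by edgeR's quasi-likelihood test: 1 was higher and 1 lower at an unadjusted p below 0.05, and DESeq2 called none of those in the count table. In the fit with the replicate block 1 rose, the copper transporter gene SLC31A2 (log2FC 0.71, adjusted p = 0.0295). The copper transporter gene SLC31A1 had a log2FC of −0.39, ATP7A of −0.07 and ATP7B of 0.00. Among 75 cytosolic ribosomal protein genes 2 fell, RPL3 by 1.05 and RPL10A by 1.01, and 24 fell with the replicate block. Among 41 genes of ribosome biogenesis HEATR1 fell by 1.08 and DDX10 by 0.93 on the log2 scale, and 8 fell with the replicate block. Each of these calls was lost under some settings. Without replicate 2 of the group with oxaliplatin the adjusted p was 0.0692 for RPL3, 0.0678 for RPL10A, 0.177 for HEATR1 and 0.166 for DDX10. With all 24 samples in one fit it was 0.224 for HEATR1 and 0.078 for DDX10, and with filterByExpr 0.0674 for HEATR1. Without replicate 3 with oxaliplatin it was 0.0585 for RPL10A, 0.0605 for HEATR1 and 0.101 for DDX10, without replicate 1 0.0579 for RPL10A and 0.0851 for DDX10, and without E1A replicate 1 0.0807 for DDX10.

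Single members of other lists rose. AKR1B10, an aldo-keto reductase gene of the NRF2 list, went from 31.4, 59.4 and 79.2 to 262, 232 and 335 normalised counts (log2FC 2.23, adjusted p = 0.00249). TAP1, a peptide transporter for antigen presentation, rose by 1.42 and ISG15 by 0.88. These were the 2 called members of 48 interferon-stimulated genes. The laminin gene LAMB3 rose by 0.77. Of 30 AP-1 and immediate early genes, DUSP5 and CCN1 rose by 0.86 and 0.91, and of 28 NF-kappaB targets LIF rose by 0.88. Under the replicate block 8 of the AP-1 list, 4 of the NF-kappaB list and 6 of the 31 genes of the NRF2 list rose, and 3 interferon-stimulated genes rose and 3 fell. Without replicate 2 of the group with oxaliplatin ISG15, LAMB3, DUSP5, CCN1 and LIF were not called (adjusted p = 0.0651, 0.117, 0.143, 0.13 and 0.0767). Without replicate 1 LAMB3, DUSP5 and CCN1 were not (0.0935, 0.0666 and 0.111), and LAMB3 was not without replicate 3 (0.0767) or without E1A replicate 2 (0.063). No gene of the 3 RB-family members, the 20 host proteins that E1A binds or the 13 mitochondrially encoded mRNAs was called by edgeR. At an unadjusted p below 0.05, 1 RB-family gene and 1 of the E1A-bound genes were lower and none of the mitochondrial mRNAs differed, and DESeq2 called none of these. Under the replicate block RBL1 and the E1A-bound RBBP8 fell (adjusted p = 0.017 and 0.00414) and MT-CO1 rose (0.0407). Of 19 heat shock genes none was called (4 lower at an unadjusted p below 0.05, 3 called by DESeq2, and 6 lower with the replicate block).

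The WNT targets, hypoxia-inducible genes and ERBB receptors and ligands, with 17, 20 and 17 members, held no call by edgeR. At an unadjusted p below 0.05, 2 of the WNT targets were higher and 1 lower, 2 and 3 of the hypoxia genes, and 2 and 0 of the ERBB genes. Of all 20366 genes, 1086 were higher and 1441 lower at that threshold. DESeq2 called 0, 1 and 0 members of these lists. In the fit with the replicate block 2 WNT targets rose, DKK1 and EPHB3 (adjusted p = 0.00291 and 0.0213), and AXIN2 fell (0.00817). Of the hypoxia genes 2 rose and 3 fell with the block, among them NDRG1, which rose (0.00931), and the glycolytic genes HK2 and LDHA, which fell (0.00355 and 0.00227). No ERBB gene was called with it.

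Of 25 genes of cholesterol synthesis TM7SF2, a sterol reductase gene, rose by 1.02. Of 20 replication-dependent histone genes H2BC5 rose by 1.75, and of 11 intestinal epithelial markers KRT19 rose by 0.94. The block called 2 cholesterol genes higher and 3 lower, and 3 histone genes and 4 epithelial markers higher. TM7SF2 was not called without replicate 3 of the group with oxaliplatin (adjusted p = 0.0504), and KRT19 was not without replicate 2 or 3 (0.0988 and 0.0646). Of 11 genes for CDK inhibitors and the RB family, CDKN1A was called higher and CDKN3, a phosphatase that acts on CDK2, lower, and with the replicate block 2 were called in each direction. CDKN3 had a log2FC of −1.15 (adjusted p = 0.0277), and of −0.72 without E1A replicate 2 (0.067). It was not called when any 1 of the 3 samples with oxaliplatin was left out (0.0511, 0.0622 and 0.0884), with filterByExpr (0.0842) or with all 24 samples in one fit (0.166).

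The response was next compared with that of HCT116 oxpl-R cells without doxycycline, which share no sample with it. In those cells 413 genes rose (2.09%) and 424 fell (2.14%). Of the 223 genes that rose with E1A, 204 also rose without it, which is 91.5% of the former and 49.4% of the latter. Of the 191 that fell, 135 also fell without E1A (70.7% and 31.8%). Across 11092 genes Pearson's r of the 2 log2FC was 0.701, given as a description, since genes are not independent. Replicate 1 of the oxaliplatin group without doxycycline stood apart, with 0.916% of its counts in mitochondrially encoded mRNA. The list values that follow are also given without it, a choice made after seeing the data.

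For p53 targets the median responses were alike in size. The median log2FC was 1.19 with E1A and 1.18 without, and 31 and 32 members rose. No member differed between the responses at an unadjusted p below 0.05 in the interaction test. Of all genes 1.71% were higher and 0.927% lower with E1A at that threshold, so few members could be expected to pass. The median difference was −0.05, beside −0.01 for all genes, and by role it ran from −0.27 in feedback genes to 0.03 in arrest genes. CDKN1A went from 15497, 16542 and 17669 to 138221, 121890 and 103965 normalised counts without E1A (log2FC 2.88), against 2.47 with E1A, and the difference did not pass the test of the interaction (adjusted p = 1.0). Without the library that stood apart the median was 1.16 and 33 members rose, against 2.34% of all genes.

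For E2F targets and replication genes the responses lay apart. Without E1A 37 of 59 members fell, with a median log2FC of −1.33, against 9 and −0.49 with E1A. With the replicate block the 9 became 30, and no block was fitted without E1A. The median difference between the responses was 0.75, beside −0.01 for all genes. Of 58 members with at least 10 normalised counts, 57 had a log2FC with E1A above that without it, against 6503 of 13381 genes. No single member passed the interaction test, in which 0 of 21575 genes (0.0%) were called, 368 (1.71%) were higher with E1A at an unadjusted p below 0.05 and 200 (0.927%) were lower. Of the 59 members, 35 were among the 368 and none among the 200. Without the library that stood apart 36 members fell without E1A, against 2.37% of all genes. The median difference was 0.77 and 32 members were higher with E1A at an unadjusted p below 0.05, against 1.74% of all genes.

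The lowest adjusted p of the interaction test belonged to E2F1. Its normalised counts without doxycycline were 2533, 3015 and 2860 untreated and 718, 594 and 607 with oxaliplatin, a log2FC of −2.12 (SE 0.19, adjusted p = 6.87e-05). With E1A the log2FC was −0.51, so the responses differed by 1.65 (SE 0.26, adjusted p = 0.0722). All treated samples with E1A lay above all treated ones without it. The untreated samples with E1A also lay above the untreated ones without it, so this separation alone does not show a different response. The adjusted p of the difference was 1.24e-05 with DESeq2, and it was 0.032 without the library that stood apart.

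MCM5, a helicase subunit, went from 5773, 6386 and 6741 to 1687, 1312 and 1324 normalised counts without E1A, and from 8418, 6689 and 7133 to 5049, 3963 and 4798 with it. The difference was 1.43 (SE 0.25, adjusted p = 0.131; 0.032 without the library that stood apart). CDT1, which loads the helicase, went from 2819, 3010 and 3137 to 795, 533 and 519 without E1A, and from 4144, 2423 and 3385 to 2370, 1602 and 2543 with it (difference 1.66, adjusted p = 0.148). CDC25A, a phosphatase that activates CDK2, dropped by 1.69 without E1A and by 0.53 with it on the log2 scale (difference 1.19, adjusted p = 0.208). In each of these genes the treated samples with E1A were all above the treated ones without it. Genes of the interaction test were named by their low p, so this separation is partly owed to how they were chosen. The responses of MCM5, CDT1 and CDC25A with E1A were not called (adjusted p = 0.051, 0.2 and 0.171), but were with the replicate block (0.000179, 0.0023 and 0.024).

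DESeq2 called 9 genes in the interaction test of the count table (0.0492% of 18307 genes): MCM4, E2F1, MCM5, CDC25A, ASF1B, CDT1, MCM7, KIFC1 and KIF18B, of which MCM7 and the mitotic kinesins KIFC1 and KIF18B were chosen after their values were seen. CCNE2 had the widest gap of the genes drawn in the plot of 4 groups. It went from 784, 829 and 787 to 106, 271 and 413 normalised counts without E1A and rose in each pair with it (difference 2.36, SE 0.57, adjusted p = 0.725). The origin licensing genes had a median log2FC of −0.70 with E1A and −1.82 without it, and 5 and 17 of 18 fell. With the replicate block the 5 became 14.

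**Figure D2:**
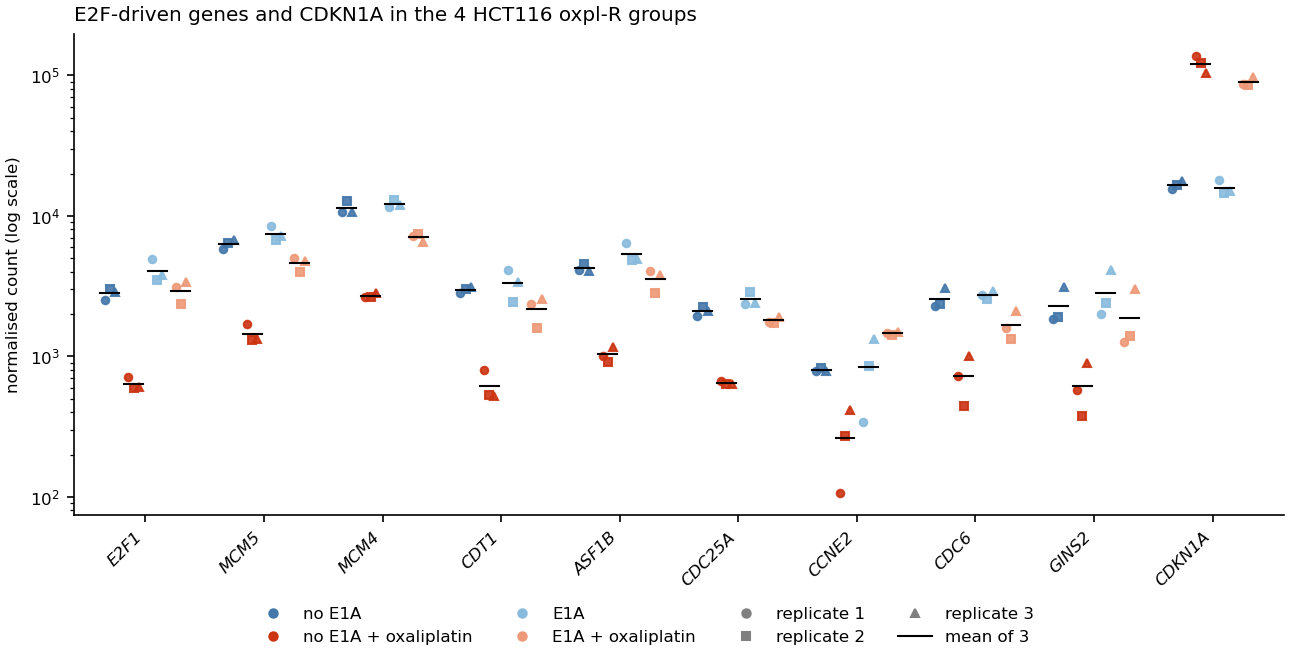
Normalised counts on a log axis of 9 genes of E2F-driven replication and of CDKN1A in the 4 HCT116 oxpl-R groups (colours as in the legend; marker shape, replicate number; black bars, means of 3). E2F1, MCM5, CDT1 and CDC25A drop by 1.69 to 2.27 on the log2 scale after oxaliplatin without E1A and by 0.51 to 0.72 with it, whereas CDKN1A rises in both.

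G2/M genes fell in both settings. Without E1A 46 of 58 members fell, with a median log2FC of −1.93, against 39 and −1.34 with E1A. The median difference was 0.74, close to the 0.75 of the E2F targets and beside −0.01 for all genes. It was above 0 in 52 of 58 members, against 6503 of 13381 genes. At an unadjusted p below 0.05, 26 members were higher with E1A, against 1.71% of all genes. CDC20 fell by 2.74 on the log2 scale without E1A and by 1.73 with it (difference 1.04, SE 0.26, adjusted p = 0.771), and PLK1 by 2.79 and 1.69 (difference 1.13, adjusted p = 1.0). Without the library that stood apart, 39 members fell without E1A and 23 were higher with E1A at an unadjusted p below 0.05.

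**Figure D3:**
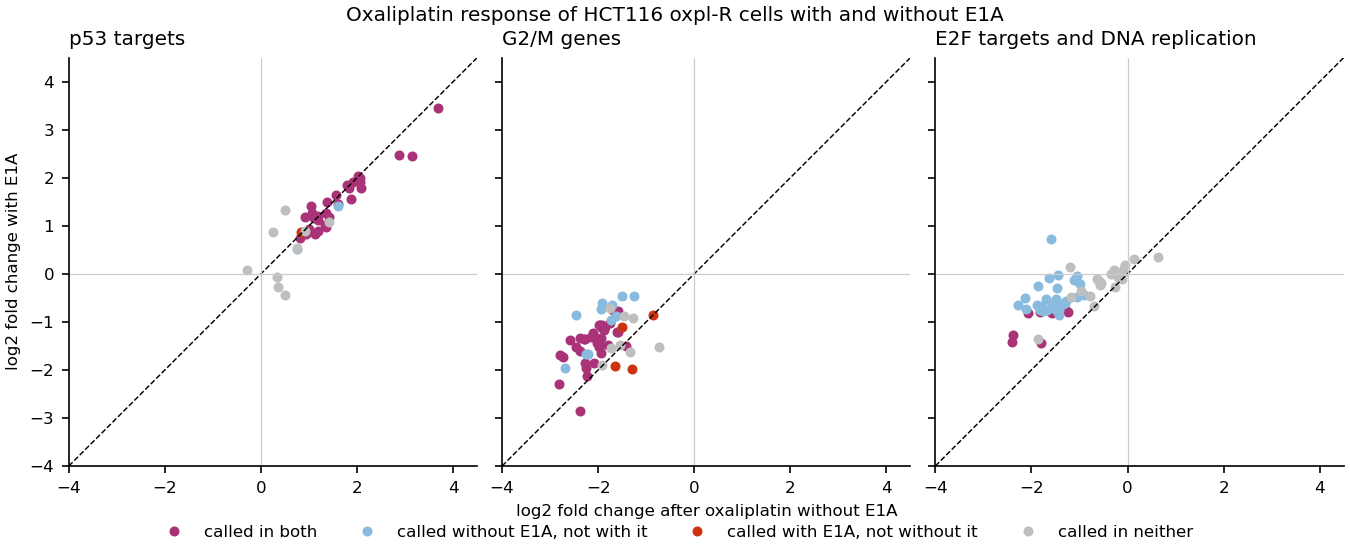
Log2 fold change after oxaliplatin in HCT116 oxpl-R cells with E1A (y axis) against without E1A (x axis), 1 point a gene, for p53 targets, G2/M genes and E2F targets (colours, calls at an adjusted p below 0.05; dashed line, equal responses). The p53 targets lie along the line, with medians of 1.19 and 1.18, whereas 57 of 58 E2F targets and 52 of 58 G2/M genes lie above it.

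The response was last compared with that of E1A-expressing parental HCT116 cells, which share no sample with it. There 952 genes rose (4.87%) and 932 fell (4.77%), and Pearson's r of the log2FC across 11083 genes was 0.416. Replicate 1 of that line with E1A and oxaliplatin had an E1A level of 206 CPM, against 488 and 530 in the other replicates. In the parental line 21 of the p53 targets rose, 18 of the G2/M genes fell and 7 of the E2F targets fell. Without that replicate, a choice made after seeing the data, these counts were 32, 31 and 22, against 14.7% of all genes that rose and 14.1% that fell.

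The interaction test between the lines called 16 of 21573 genes (0.0742%), of which 1, TP53I3, was on the p53 list and none on the G2/M or E2F lists. SUGCT rose from 217, 221 and 224 to 1526, 1709 and 1797 normalised length-scaled counts in HCT116 oxpl-R cells and fell by 1.70 on the log2 scale in HCT116 cells (difference 4.53, adjusted p = 6.15e-07). SORCS2 rose by 4.76 in HCT116 oxpl-R cells and had a log2FC of 0.84 in HCT116 cells (difference 3.82, adjusted p = 0.00446). TP53I3 rose by 3.46 and 1.67 (difference 1.71, adjusted p = 0.0228). The median difference was 0.30 for p53 targets, −0.82 for G2/M genes and −0.23 for E2F targets, beside −0.02 for all genes. Of the count-table genes 13 were called, and 2 to 79 when each sample was left out. Without parental replicate 1 with low E1A the number was 75. It was 53, 52 and 79 without E1A replicates 1, 2 and 3 of HCT116 oxpl-R cells and 8 without their oxaliplatin replicate 1. It was 4 and 2 without parental E1A replicates 1 and 3.

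Platinum adducts can block RNA polymerases on long genes, and the response was therefore set against gene length. In 5 bins of genes with at least 10 normalised counts, from those up to 8.70 kb to those from 96.4 kb, the median log2FC was 0.06, 0.04, 0.01, −0.07 and −0.19. In the shortest bin 51 genes rose and 21 fell, and in the longest bin 15 rose and 38 fell. Replicate 3 with oxaliplatin deviated from its group by 0.16 in the shortest bin and by −0.18 in the longest, as much as the trend itself, so the trend was no larger than the spread between replicates. The same medians were 0.02 and −0.07 in the first and last bin without E1A, and 0.32 and −0.37 in E1A-expressing parental cells.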

How the data were processed

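RNA-seq of 24 samples, 3 in each of 8 conditions, was deposited as 2 tables. Per the labels and the study's methods, the authors trimmed reads with Trimmomatic, quantified transcripts with Salmon 1.6.0 against GENCODE and summed them to genes with tximport, so the deposited count table holds estimated counts that need not be whole. They were rounded here. The second deposited table is named TPM, but its values are estimated counts scaled by transcript length. It served only for 4854 genes after SETP6, which the count table used here does not hold, and it ends at TSC22D3, so that later gene names are not analysed here.

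Genes with a count in any sample were fitted with edgeR 4.0.16 (TMM, quasi-likelihood test, Benjamini-Hochberg adjustment, threshold 0.05) in R 4.3.3, separately for each table, with interaction terms for differences between responses. Alternatives used DESeq2 1.42.0, limma 3.58.1, other normalisation and filters, a replicate block and each sample left out. Deviations from group means correlated at 0.254, 0.337 and 0.385 between same-numbered samples of the response, above 0.1 in each, so the numbers were taken to pair these samples. The block is given beside list counts that it moved by more than 1.5 times and beside named genes whose call it changed.

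Named genes came from a rule: 8 genes by fold and 8 by adjusted p in each direction (4 by fold from the second table), 6 per interaction test, and core genes with the 4 leading members of each of 27 lists. The members and lists were chosen with earlier results of these data known. Totals of 26421619 to 37927720 counts limit precision for rare mRNAs. Gene spans came from GENCODE 44 on GRCh38, and promoters from RefSeq. The fits were checked on simulated counts with the same dispersion for all genes and no shared replicate effect, unlike these data. There the interaction test recovered fewer of the smaller changes than the test of the response did. Figures used matplotlib 3.10.9. Some genes are not reported here.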

Additional observations from a re-analysis of the deposited data

Results flagged for a closer look

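With E1A, the response to oxaliplatin differed between HCT116 oxpl-R and HCT116 cells in 13 genes of the count table and in 3 genes after SETP6 by the interaction test of edgeR (adjusted p below 0.05). Differences are log2FC in HCT116 oxpl-R minus log2FC in HCT116 cells. SUGCT differed by 4.53 (2.90 and −1.70, adjusted p = 6.15e-07), SORCS2 by 3.82 (4.76 and 0.84, adjusted p = 0.00446) and TP53I3 by 1.71 (3.46 and 1.67, adjusted p = 0.0228). CAPN15 differed by 2.44 (−0.48 and −2.89, adjusted p = 0.000493), KIF26A by 1.82 (1.49 and −0.30, adjusted p = 0.0134) and PACS2 by 1.78 (−0.18 and −1.93, adjusted p = 0.014). KRT80 differed by −2.12 (−0.00 and 2.14, adjusted p = 0.000907), HOXA4 by −1.98 (−0.56 and 1.45, adjusted p = 0.0349) and ANGPTL4 by −1.86 (0.21 and 2.09, adjusted p = 0.0349).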

How the results depend on the processing

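With 3 samples a group, the number of genes called moved with the samples and the test. Of the count-table genes that responded, 357 became 593 with DESeq2, 545 with all 24 samples in one fit, 228 and 204 with limma on the second table (pseudocount 0.1 and 1), 1766 with the replicate block and 199 to 1120 with each sample left out. The 57 genes after SETP6 became 34 and 34 with limma, 178 with the block and 29 to 198 with each sample left out. The 0 genes that differed with E1A became 9 with DESeq2, 7 with all 24 samples and 10 with the replicate block, and 0 to 2 with each sample left out. The 13 genes that differed between the lines became 107, 38 and 48 under the same settings, 2 with filterByExpr and 2 to 79 with each sample left out. For these differences the numbers did not pair the samples, with correlations down to −0.139 and −0.198. Of the lists, E2F targets went from 9 lower to 30 with the block and 2 to 14 with each sample left out, and the integrated stress response from 10 lower to 5 and 5 with limma and 6 to 12 with each sample left out. The p53 count stayed at 21 to 37 of 44 and the G2/M count at 27 to 55 of 58. Without the parental sample with low E1A, chosen after seeing the data, p53 targets went from 21 to 32, G2/M genes from 18 to 31 and E2F targets from 7 to 22. KITLG, a p53 target with a log2FC of −0.27, was at 0.76 without E1A replicate 3. Of up to 374 named genes, 29 lost their call without replicate 2 of the group with oxaliplatin, and none lost it with the replicate block, which called 77 more. The causes were not tested.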
